A study of Mus musculus with 6 samples.

Results

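The autophagy machinery of the liver was examined in mice lacking the nuclear receptors FXR (gene Nr1h4) and SHP (gene Nr0b2) in hepatocytes. The set held 44 genes chosen by name for their role in autophagy, and all 44 were found among the 48699 genes of the deposited table. Each had a mean of at least 0.5 FPKM, so all 44 were among the 11810 genes tested. FPKM gives fragments per kilobase of transcript relative to the sequenced fragments, here with the authors' own scaling between libraries. It is a level that is comparable between genes of different length. Liver RNA was taken after an overnight fast of 8 to 10 hours, from male C57BL/6 adults aged 10 to 12 weeks. The column headers label both groups as chow. The control group was 3 mice homozygous for floxed alleles of both genes (Fxrfl/fl Shpfl/fl). The other group was 3 mice with the hepatocyte-specific fxr-/- shp-/- genotype, called the double knockouts below. The recombinase and its promoter were not given in the sources used here.

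Autophagy encloses cytoplasm in a double membrane, the autophagosome, and delivers it to the lysosome for breakdown. A kinase complex starts the process, a lipid kinase complex marks the membrane, lipid transfer proteins supply it, and 2 conjugation systems attach small proteins of the Atg8 family to it. Those proteins bind receptors that carry the cargo. In liver the process supplies amino acids and fatty acids during fasting. FXR is known to repress autophagy genes in the fed state, by competing with PPARA for shared promoter sites and by disrupting the complex of CREB with CRTC2, and SHP is known to repress such genes together with a histone demethylase.

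No autophagy gene passed the threshold (limma, Benjamini-Hochberg adjusted p under 0.05 over all tested genes), against 0.313% of all tested genes, 37 in number. By the unadjusted limma p under 0.05, 4 members were higher and 5 lower in the double knockouts, beside 6.97% and 7.98% of all tested genes in those directions (14.9% in either). The knockout values lay wholly above the control values in 8 members and wholly below them in 8, and overlapped in the other 28. Of all tested genes, 11.3% lay wholly above and 11.6% wholly below, 22.9% together. With the trend on transcript length and GC content removed, those counts of members were 6 and 12 (8.8% and 10.3% of all tested genes in that fit), and the counts by unadjusted p were 3 higher and 6 lower (5.85% and 6.42%). The fold changes were positive in 18 members and negative in 26, with a median log2 fold change of -0.16, where the median of all tested genes was -0.01. The median was -0.09 under quantile normalization and -0.07 with library weights. With 3 libraries a group, 0.1 is the smallest p that an exact two-sided permutation test allows, and the limma fit across genes was used instead. The labels do not say how the 3 animals of a group are related, so the p-values measure the spread between these samples.

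**Figure D1:**
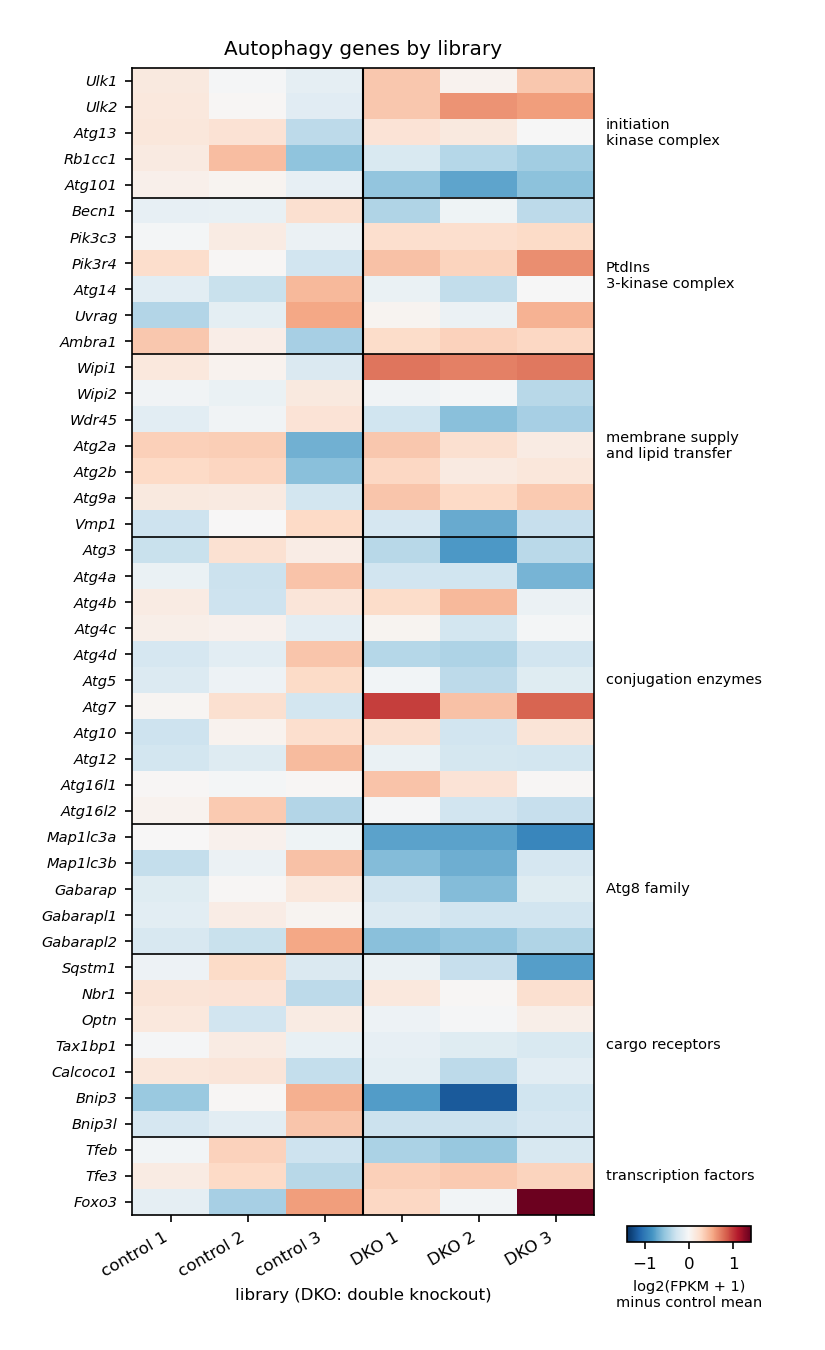
Heat map of the 44 autophagy genes (rows, grouped by role) in the 6 libraries (columns); colour gives log2(FPKM + 1) minus the mean of the 3 control libraries. The row of Map1lc3a is blue and the row of Wipi1 red in all 3 double knockout (DKO) libraries. Many other rows also keep a single colour across these 3 libraries. The controls of each row hold both colours because their mean was subtracted.

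Both deleted genes were lower in every knockout library. The level of Nr0b2 was between 14.7 and 18.7 FPKM in the control livers and no more than 0.293 FPKM in the knockouts, and Nr1h4 was between 59.8 and 71.8 FPKM in the control livers and between 15.5 and 22.0 FPKM in the knockouts. Both passed the threshold (limma adjusted p = 0.000277 and 0.0172). Control replicate 3 stood apart from the other controls. Its log2 values correlated with theirs at 0.952 and 0.955 across genes, where those 2 correlated at 0.983. It correlated most closely with double knockout replicate 3, at 0.966. It was the highest or the lowest control in 41 of the 44 autophagy genes, or 93.2%, against 83.4% of all tested genes. Without it, 242 genes passed the threshold (2.05% of those tested), and 1 of them was an autophagy gene, Map1lc3a. Leaving it out also moved the log2 fold change of 19 members by over 1.5 times and turned the sign of 7 others. The FPKM of all genes summed to between 702759 and 841745 in the controls and between 610618 and 697877 in the knockouts, so the sums did not overlap. The libraries are of whole liver, so fewer cells of a type and less RNA per cell cannot be told apart. The 6 hepatocyte markers summed to between 54013 and 65187 FPKM in the controls and to between 28375 and 48909 FPKM in the knockouts, and most of the sum was Alb (albumin). Alb was the only one of the 6 without overlap, while Ttr, Apoa1, Cps1, Tat and Hnf4a overlapped, and 0 of the 6 passed the threshold. The 8 Kupffer cell and macrophage markers summed to between 51.6 and 142 FPKM in the control livers and to between 93.8 and 239 FPKM in the knockouts, and were highest in double knockout replicate 2. In the authors' deposited table Csf1r, Adgre1, Cd5l and Marco were called higher (q between 0.00792 and 0.021). Clec4f, Vsig4, Timd4 and Cd68 were not called there, and 0 of the 8 passed the limma threshold. The 6 cholangiocyte markers summed to between 33.7 and 44.3 FPKM and to between 59.1 and 63.9 FPKM. Nearly all of that was Spp1 (osteopontin), at 31.1 to 42.6 FPKM and 55.2 to 60.9 FPKM, while the defining keratins Krt19 and Krt7 were near or under 1 FPKM in every library. Spp1 was called higher in the authors' deposited table (q = 0.0346) but not in the limma fit (limma adjusted p = 0.146). The part of these markers in the values below was not tested.

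The Atg8 family gave the most uniform direction of the roles, with all 5 members lower on average in the knockouts (median log2 fold change -0.51). The sign was negative for each member under all 13 alternatives tried, but the sizes were not stable. Under quantile normalization Gabarapl1 stood at -0.02 and Gabarap at -0.11 on the log2 scale. Without control replicate 3, Gabarapl2 stood at -0.25 and Map1lc3b at -0.30. With the trend on length and GC content removed, Gabarap stood at -0.19 and Gabarapl1 at -0.14. The longest coding transcripts of the family have between 1112 and 2633 bases. Among autophagy members of any role with up to 3000 bases, only Atg10 had a positive fold change. Map1lc3a, which encodes LC3A, a ubiquitin-like protein that is joined to lipid in the autophagosome membrane, had the smallest p-value of the 44 genes. It measured 53.2, 55.3 and 51.1 FPKM in the control livers and 31.3, 31.3 and 27.8 FPKM in the knockouts. The groups did not overlap, and the spread within each group was small beside the difference. The log2 fold change was -0.80 (SE 0.13, limma adjusted p = 0.0758), a mean 1.77-fold lower. Without control replicate 3 it passed the threshold, with a log2 fold change of -0.83 (limma adjusted p = 0.0359). It also passed with library weights (-0.82, limma adjusted p = 0.0123), which gave control replicate 3 a weight of 0.232 and the other libraries between 0.981 and 2.13. With these weights 4.77% of all tested genes passed. In the authors' deposited table Map1lc3a was called lower (q = 0.0144). The gene lies on chromosome 2, 155276297 to 155278073 (GRCm38), and its exons share no bases with another annotated gene.

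The other LC3 gene, Map1lc3b, whose lipid-bound product is the usual laboratory marker of autophagosomes, measured 64.1, 76.1 and 108 FPKM in the control livers and 52.5, 49.9 and 68.5 FPKM in the knockouts. Control replicate 3 was highest and the groups overlapped (log2 fold change -0.51, 95% interval -1.04 to 0.02, limma adjusted p = 0.348). The authors' deposited table gave it a q of 0.952. Its FPKM values were deposited with a locus from 119910360 to 124345724 on chromosome 8. The annotated gene runs only from 121590361 to 121598760, so the values of Map1lc3b need care. Loci wider than the gene also came with other members, among them Atg16l2, Atg4b, Atg9a and Sqstm1. The most abundant of all 44 genes was Gabarapl1, a GABARAP-type Atg8 protein. It measured 289, 344 and 327 FPKM in the control livers and 279, 265 and 264 FPKM in the knockouts. Its groups did not overlap, yet the nearest libraries of the groups lay close together (log2 fold change -0.24, 95% interval -0.60 to 0.11, limma adjusted p = 0.476). Gabarap measured 179, 205 and 224 FPKM against 168, 133 and 179 FPKM, with overlap. Gabarapl2, which also acts in Golgi transport, measured 35.1, 33.2 and 60.4 FPKM against 27.2, 28.0 and 30.6 FPKM, without overlap. These 2 had limma adjusted p-values of 0.404 and 0.352. Summed over the family, the level was 701 ± 76.1 FPKM in the control livers and 545 ± 33.6 FPKM in the knockouts (SD, n = 3 each), and Gabarapl1 made up between 42.5% and 52.3% of the sum in every library.

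**Figure D2:**
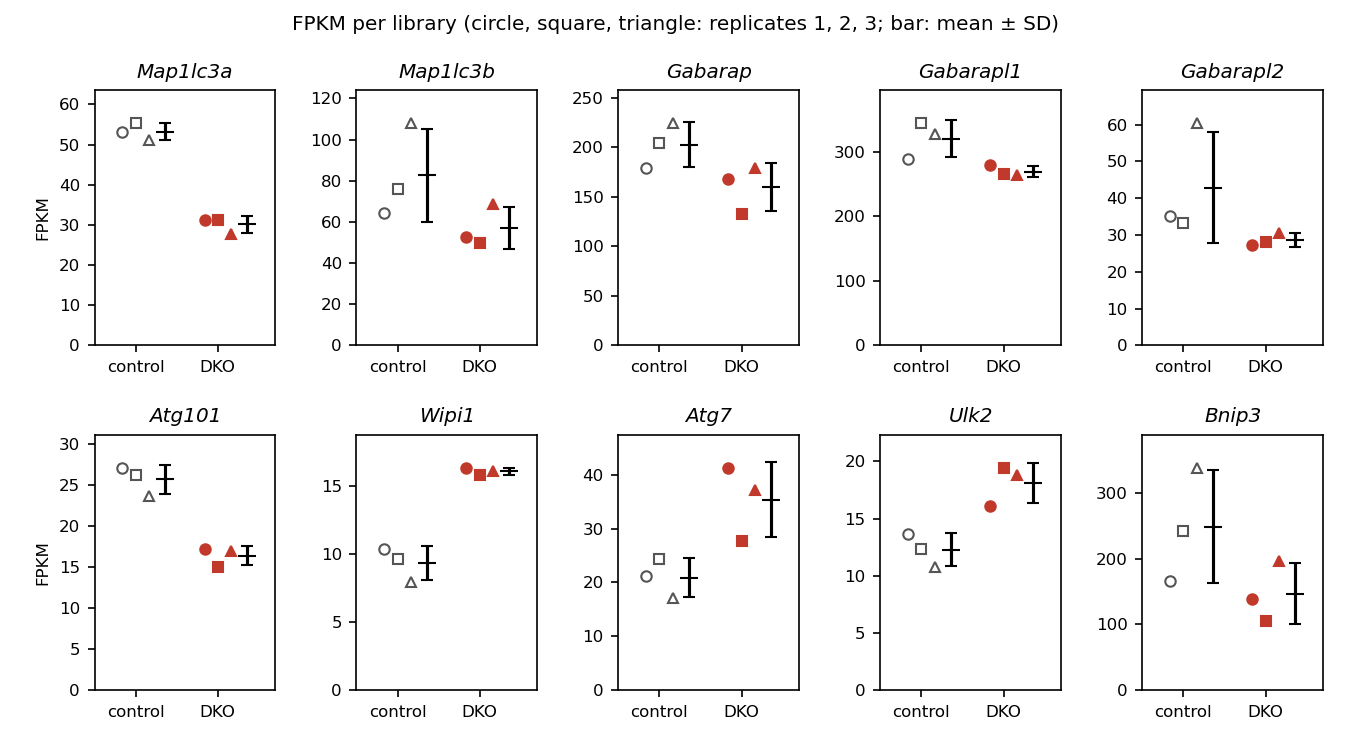
FPKM of the 5 Atg8 family genes and 5 other members in each library, with the axis of each panel starting at 0; open symbols are controls, filled symbols double knockouts (DKO), and bars give the mean ± SD of 3 libraries. The groups are apart for Map1lc3a, Gabarapl1, Gabarapl2, Atg101, Wipi1, Atg7 and Ulk2, and overlap for Map1lc3b, Gabarap and Bnip3.

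In the initiation kinase complex the subunits moved in different directions. Atg101, which encodes a subunit that stabilises Atg13, was at 27.1, 26.3 and 23.7 FPKM in the control livers and at 17.2, 15.05 and 16.9 FPKM in the knockouts. Every knockout value was below every control value (log2 fold change -0.62, SE 0.14, limma adjusted p = 0.14). It passed the threshold only with library weights (-0.64, limma adjusted p = 0.024), and without control replicate 3 its limma adjusted p was 0.0511. Ulk2, one of a pair of related kinases that start autophagy, was at 13.7, 12.3 and 10.8 FPKM in the control livers and at 16.1, 19.4 and 18.8 FPKM in the knockouts. Here every knockout value was above every control value (log2 fold change 0.53, SE 0.15, limma adjusted p = 0.2). Its partner kinase Ulk1 was at 15.02, 13.5 and 12.4 FPKM against 18.0, 14.1 and 18.0 FPKM, with overlap (log2 fold change 0.27, limma adjusted p = 0.449). The scaffold subunits Atg13 and Rb1cc1 (FIP200) had fold changes of 0.11 and -0.37 on the log2 scale, and in both the lowest control was replicate 3. Without that library the fold change of Atg13 was -0.07 and that of Rb1cc1 was -0.65 (limma adjusted p = 0.0832), and without control replicate 2 that of Rb1cc1 was -0.15.

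Of the lipid kinase complex, the catalytic subunit Pik3c3 (VPS34) measured 5.03, 5.67 and 4.796 FPKM in the control livers and 6.22, 6.24 and 6.43 FPKM in the knockouts. Its regulatory subunit Pik3r4 (VPS15) measured 4.29, 3.54 and 2.73 FPKM against 4.93, 4.54 and 6.01 FPKM. Both were higher in every knockout library than in any control, by 0.25 and 0.46 on the log2 scale (limma adjusted p = 0.434 and 0.315). Becn1 (Beclin 1), the most abundant subunit, measured 38.0, 38.4 and 48.4 FPKM against 30.5, 39.5 and 31.9 FPKM. Its groups overlapped (log2 fold change -0.29, 95% interval -0.68 to 0.11). Uvrag, a Beclin 1 partner of endosomes, was the next most abundant, at 6.73, 8.38 and 14.0 FPKM against 9.55, 8.75 and 13.4 FPKM. Replicate 3 was the highest of both groups. Atg14, which directs the complex to the forming autophagosome, and Ambra1, which binds Beclin 1, had fold changes of -0.15 and 0.29 on the log2 scale, with overlap. Without control replicate 3 the sign of Atg14 turned and Ambra1 stood at 0.06.

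Among the genes of membrane supply, Wipi1 had the second smallest p-value of the 44. It encodes a protein that binds the lipid made by the kinase complex. Its level was 10.4, 9.66 and 7.93 FPKM in the control livers and 16.3, 15.8 and 16.1 FPKM in the knockouts. The groups were well apart, and the 3 knockouts lay close together (log2 fold change 0.73, SE 0.15, limma adjusted p = 0.114), a mean 1.72-fold higher. With library weights Wipi1 passed the threshold, with a log2 fold change of 0.67 (limma adjusted p = 0.0226), and without control replicate 3 its limma adjusted p was 0.0519. In the authors' deposited table it was called higher (q = 0.021). Wipi1 and Map1lc3a were the only members called there, 2 of 44, beside 4.58% of the genes the authors tested (2.85% higher and 1.73% lower). The gene lies on chromosome 11, 109573331 to 109611967 (GRCm38). The related Wdr45 (WIPI4) went the other way, at 31.9, 34.1 and 40.6 FPKM against 29.1, 23.3 and 25.4 FPKM, without overlap (log2 fold change -0.44, limma adjusted p = 0.273). Wipi2, which recruits the conjugation machinery, was at 18.0, 17.4 and 20.6 FPKM against 17.9, 18.2 and 14.0 FPKM. Vmp1, a lipid scramblase of the endoplasmic reticulum and the most abundant of this role, was at 74.5, 91.7 and 111 FPKM against 77.5, 55.5 and 72.7 FPKM, with overlap. Atg9a, the scramblase of the seed vesicles, lay higher in every knockout library, at 14.6, 14.5 and 10.8 FPKM against 17.6, 16.2 and 17.3 FPKM (log2 fold change 0.34, 95% interval -0.02 to 0.71). The lipid transfer proteins Atg2a and Atg2b were at 10.6, 10.7 and 4.75 FPKM and at 3.74, 3.80 and 1.60 FPKM in the controls, low in replicate 3. Their fold changes of 0.24 and 0.19 on the log2 scale were both -0.10 without that library.

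In the conjugation systems, Atg7, the E1-like enzyme that activates both Atg12 and the Atg8 proteins, was at 21.1, 24.4 and 17.1 FPKM in the control livers and at 41.3, 27.7 and 37.1 FPKM in the knockouts. Every knockout value was above every control value, though the knockouts varied among themselves (log2 fold change 0.73, SE 0.20, limma adjusted p = 0.193). Next, Atg3, the E2-like enzyme that takes the Atg8 proteins from Atg7, was at 33.0, 48.1 and 44.4 FPKM against 31.3, 23.2 and 31.6 FPKM. It lay lower without overlap (log2 fold change -0.52, limma adjusted p = 0.294). So 2 enzymes of consecutive steps had opposite signs. Atg5, which is joined to Atg12 and was the next most abundant, was at 27.2, 29.7 and 38.0 FPKM against 30.5, 24.0 and 27.8 FPKM, with overlap. Of the Atg4 proteases, which trim the Atg8 proteins, Atg4d lay lower without overlap (10.1, 10.9 and 16.1 FPKM against 8.97, 8.76 and 9.88 FPKM). Exons of Atg4d share 19.3% of their bases with Kri1 on the other strand (mean 4.53 FPKM), and the sources used here do not say whether strand was used in counting. Atg4a, Atg4b and Atg4c had fold changes of -0.40, 0.21 and -0.08 on the log2 scale, with overlap. Atg16l1, the scaffold that places the conjugation on the membrane, lay higher without overlap, but one knockout library and one control were both at 12.6 FPKM (log2 fold change 0.20, limma adjusted p = 0.54). Atg10, Atg12 and Atg16l2 overlapped, with fold changes of 0.04, -0.20 and -0.20 on the log2 scale, and the sign of Atg12 turned without control replicate 3.

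**Figure D3:**
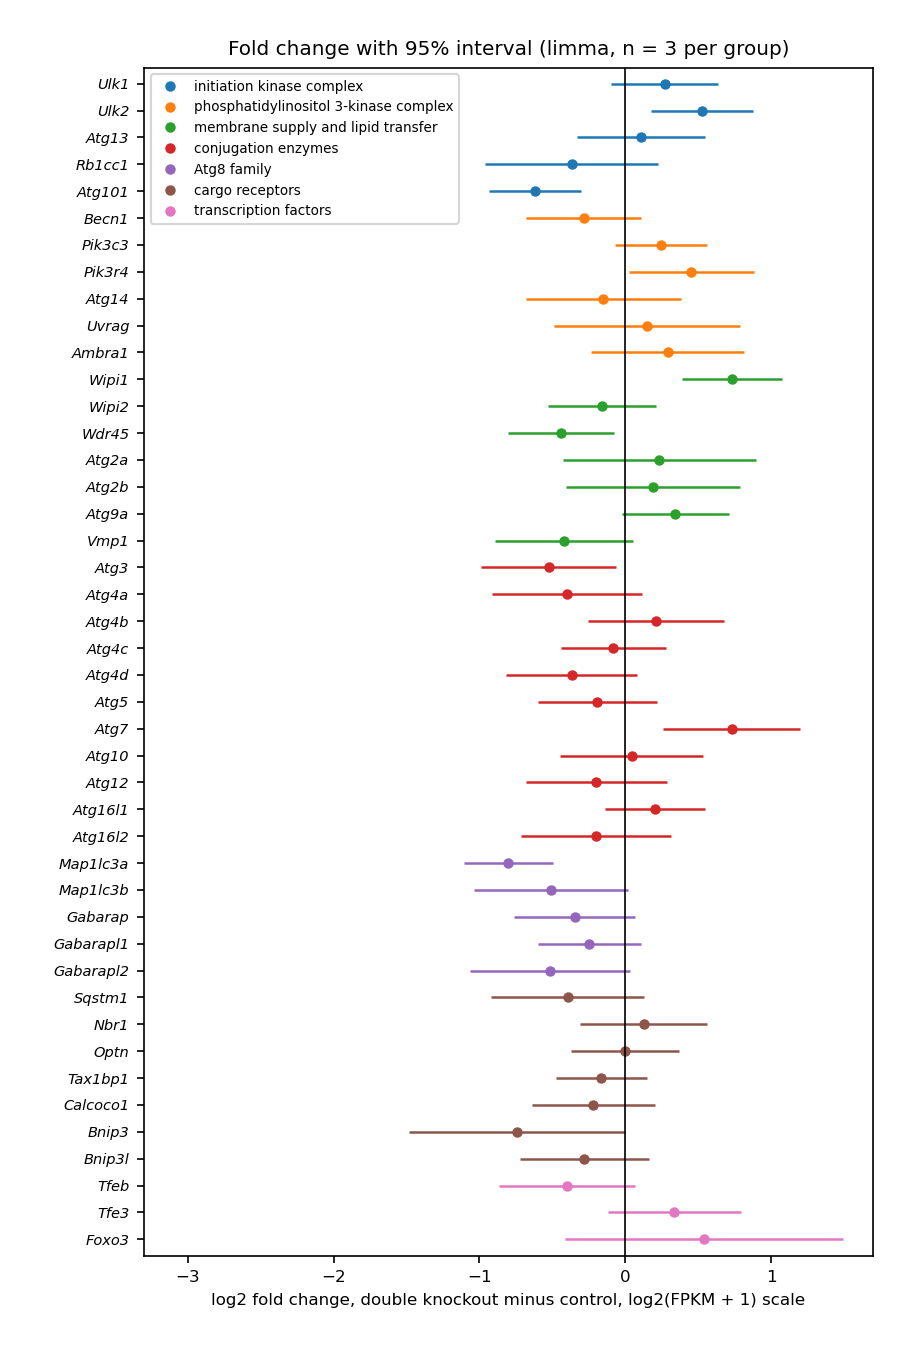
Log2 fold change of each of the 44 genes (double knockout minus control on the log2(FPKM + 1) scale; points) with its 95% interval from limma (lines), coloured by role. All 5 Atg8 family genes lie left of 0, from -0.80 for Map1lc3a to -0.24 for Gabarapl1, while each of the other roles has genes on both sides.

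Of the 7 cargo receptors, 6 had negative fold changes, with a median of -0.22 on the log2 scale, and the sign of 1 of these, Optn, was not stable. Sqstm1 (p62), which ties ubiquitin-marked cargo to LC3, measured 253, 320 and 230 FPKM in the control livers and 249, 212 and 155 FPKM in the knockouts. It was the second most abundant of the 44, and its groups overlapped (log2 fold change -0.40, 95% interval -0.92 to 0.13, limma adjusted p = 0.446). Bnip3, a receptor of the mitochondrial surface known for its response to low oxygen, measured 166, 242 and 338 FPKM against 138, 105 and 197 FPKM. The controls spanned a wide range, and the highest knockout exceeded the lowest control (log2 fold change -0.74, SE 0.32, limma adjusted p = 0.332). Leaving out control replicate 3 gave -0.49 on the log2 scale, and leaving out double knockout replicate 3 gave -0.98. Its relative Bnip3l (NIX) measured 30.2, 32.3 and 47.3 FPKM against 29.0, 29.0 and 30.3 FPKM. Tax1bp1 lay lower without overlap by a small margin (59.2, 65.1 and 55.8 FPKM against 55.3, 53.2 and 51.7 FPKM). Nbr1 and Calcoco1, both binding partners of Atg8 proteins, had fold changes of 0.13 and -0.22 on the log2 scale, and that of Nbr1 was negative without control replicate 3. Exons of Sqstm1 share 17.3% of their bases with Mrnip on the other strand (mean 5.63 FPKM). Optn (optineurin) had the log2 fold change nearest to 0 of all 44 genes, with means of 38.8 ± 6.02 and 38.5 ± 2.10 FPKM (SD, n = 3 each), with a 95% interval of the log2 fold change from -0.37 to 0.37.

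The 3 transcription factors were among the low members, between 3.04 and 8.88 FPKM on average. Tfeb, the master regulator of lysosome and autophagy genes, had the lowest level of all 44, at 3.42, 4.70 and 2.72 FPKM in the control livers and 2.34, 2.15 and 2.89 FPKM in the knockouts. Its highest knockout exceeded its lowest control (log2 fold change -0.40, 95% interval -0.86 to 0.07, limma adjusted p = 0.391). Its relative Tfe3 lay higher without overlap, at 6.75, 7.71 and 4.47 FPKM against 8.04, 8.24 and 7.90 FPKM (log2 fold change 0.34, limma adjusted p = 0.451). Its fold change was 0.14 without control replicate 3, the lowest control, and 0.16 with library weights. Foxo3, a forkhead factor held back by insulin signalling, measured 5.87, 4.41 and 10.3 FPKM against 8.12, 6.29 and 18.4 FPKM. Replicate 3 was the highest of each group, and the interval was the widest of the 44 genes (log2 fold change 0.54, 95% interval -0.41 to 1.49). Without control replicate 3 the log2 fold change of Foxo3 was 0.84, and with double knockout replicate 3 left out it was 0.12.

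On the log2(FPKM + 1) scale, which narrows the interval of low genes, the 95% interval lay between -1 and 1 in 37 of the 44 genes. With a pseudocount of 0.1 it did so in 30, so these intervals are no bound on the change in level of the low members. In the fit reported the exceptions were Wipi1, Atg7, Map1lc3a, Map1lc3b, Gabarapl2, Bnip3 and Foxo3. The median half-width of the intervals was 0.44 on the log2 scale.

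The sign of the fold changes varied with transcript length. Of 3 members with a longest coding transcript of up to 1500 bases, Atg101, Map1lc3a and Gabarap, all were negative, and of 14 between 1500 and 3000 bases, 13 were. Of 27 over 3000 bases, 17 were positive. Across all tested genes with a known length, the median log2 fold change was -0.26, -0.09 and 0.11 in the same classes, and that of the members was -0.62, -0.40 and 0.19, of the same sign and larger in size. The 8 members that lay wholly above the controls had transcripts of between 3130 and 5743 bases, and the 8 wholly below of between 1112 and 5951 bases. With the trend on length and GC content removed, an alternative added after the values were seen, the log2 fold change of Map1lc3a was -0.59 (limma adjusted p = 0.17) and that of Wipi1 was 0.68 (limma adjusted p = 0.114). Atg7 stood at 0.62 and Atg101 at -0.44 in that fit.

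**Figure D4:**
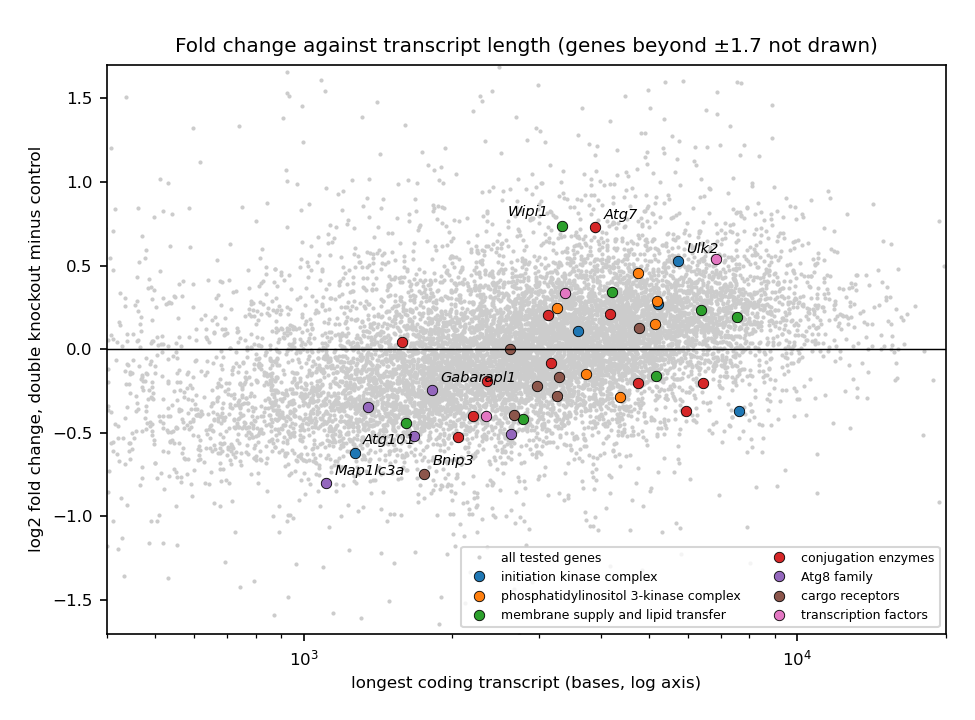
Log2 fold change (vertical axis, double knockout minus control) against the longest coding transcript in bases (horizontal log axis) for tested genes within the axis ranges (grey) and the 44 autophagy genes (coloured by role). The 3 members of up to 1500 bases lie below 0, as does the median of all genes of that length (-0.26), and 17 of the 27 members over 3000 bases lie above it.

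Promoter windows from RefSeq (GRCm38.p6), the 250 bases before an annotated start, were found for 37 of the members, 46 windows in all. Motifs were searched on both strands. The FXR inverted repeat (AGGTCA, any 1 base, TGACCT), the PPARA direct repeat (AGGTCA, any 1 base, AGGTCA) and the forkhead site GTAAACA occurred in 0 member windows, and in 0.0061%, 0.0335% and 3.17% of all 32851 windows. The FXR and PPARA repeats are so rare, in 2 and 11 of all windows, that 0 among 46 windows cannot tell whether members lack such sites. At 3.17% of all windows, the forkhead site is also too rare for 0 among 46 windows to tell. The CREB site TGACGTCA occurred in the window of Atg16l2 alone (1.55% of all windows). The E-box core CACGTG, which is part of the site that TFEB and TFE3 bind, occurred in 4 of the 46 member windows. These belong to Atg3, Atg5, Atg7 and Bnip3, and the core occurred in 6.02% of all windows. A match is a description of letters, not a site shown to be bound. The windows of 3 of these are printed to show where the core lies, in capitals, relative to the start, which follows the last base. The RefSeq start lies 44 bases inside the GENCODE gene for Atg3, 13 bases inside for Bnip3 and 19 bases before it for Atg5. For Atg7 it lies 27999 bases inside, and that window is not shown.
Atg3, chr16:45158579-45158828, plus strand: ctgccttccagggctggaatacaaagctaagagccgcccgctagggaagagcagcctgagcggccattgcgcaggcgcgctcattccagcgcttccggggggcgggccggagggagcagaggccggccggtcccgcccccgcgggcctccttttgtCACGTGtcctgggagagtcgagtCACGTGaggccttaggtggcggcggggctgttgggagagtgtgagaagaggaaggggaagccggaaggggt
Atg5, chr10:44268089-44268338, plus strand: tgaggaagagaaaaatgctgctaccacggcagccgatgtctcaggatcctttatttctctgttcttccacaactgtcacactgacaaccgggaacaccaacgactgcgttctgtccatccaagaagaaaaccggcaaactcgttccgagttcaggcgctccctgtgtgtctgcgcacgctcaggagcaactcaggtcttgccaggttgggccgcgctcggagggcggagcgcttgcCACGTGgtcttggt
Bnip3, chr7:138909507-138909756, minus strand: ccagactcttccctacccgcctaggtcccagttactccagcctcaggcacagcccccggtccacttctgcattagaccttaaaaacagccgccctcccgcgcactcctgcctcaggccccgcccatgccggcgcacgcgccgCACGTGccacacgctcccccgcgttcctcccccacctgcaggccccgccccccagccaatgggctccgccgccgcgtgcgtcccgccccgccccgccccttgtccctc
The window of Atg3 holds the core at 2 places, the first of them 94 bases before the start, and that of Atg5 holds it 14 bases before the start. Of the 4 genes with the core, Atg7 had a positive and the other 3 a negative fold change.

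Other genes of the pathway, in 5 lists with 79 genes found and 74 tested, also gave 0 calls past the threshold. By the unadjusted limma p under 0.05, 6 were higher and 2 lower, beside 6.97% and 7.98% of all tested genes. The 2 lower genes were Rheb and Prkab1, each at -0.40 on the log2 scale without overlap (limma adjusted p = 0.285 and 0.302). The knockout values lay wholly above the controls in 13 of the 74 and wholly below in 7. Those shares were 11.3% and 11.6% of all tested genes. The 5 under the filter were Prkab2, Rragb, Rragd, Atg9b and Bcl2. The fold changes were positive in 46 and negative in 28, with a median of 0.11 on the log2 scale. Of all tested genes, 49.2% were positive, with a median of -0.01. The part of transcript length in these lists was not tested. Wdfy3, which encodes ALFY, a scaffold for the autophagy of protein aggregates, was at 3.22, 2.68 and 2.24 FPKM in the control livers and at 5.91, 5.82 and 5.499 FPKM in the knockouts (log2 fold change 0.87 with an SE of 0.16, limma adjusted p = 0.086). These groups were well apart, and the authors' deposited table called it higher (q = 0.0415). Trp53inp1, a p53 target whose product binds Atg8 proteins, had the largest fold change of these lists. It was at 21.5, 21.4 and 42.8 FPKM in the control livers and at 88.4, 57.8 and 116 FPKM in the knockouts (log2 fold change 1.60, SE 0.34, limma adjusted p = 0.132). Its groups did not overlap, and the authors' deposited table called it higher (q = 0.00121). Another list held genes of nutrient signalling, namely mTORC1, TSC, AMPK and Rag genes with their regulators, most of them not kinases. In it, Sesn3, a sestrin that restrains mTORC1, was at 2.93, 2.01 and 2.72 FPKM against 4.35, 4.66 and 4.95 FPKM. Its groups did not overlap (limma adjusted p = 0.16). It was called higher in the authors' deposited table too (q = 0.00932). Wdfy3, Trp53inp1 and Sesn3 were the only genes of these lists called there, 3 of 74, beside 4.58% of the genes the authors tested. Tsc2, which holds back the mTORC1 activator Rheb, was at 4.59, 3.85 and 3.09 FPKM against 5.41, 5.82 and 5.92 FPKM (log2 fold change 0.48, limma adjusted p = 0.255). Of the 14 genes of fusion with the lysosome, 11 had a positive fold change (median 0.10), and of 11 other transcriptional regulators, 8 had (median 0.18), each with 0 past an unadjusted p of 0.05. Of the 16 other cargo receptors, 6 lay above 0 and 10 below (median -0.05). Of the 21 nutrient signalling genes tested, 12 lay above and 9 below (median 0.23).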

How the data were processed

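The authors deposited FPKM values for 48699 genes in 6 liver libraries, 3 per group, and, for the group comparison, a p-value and q-value for each gene. Per the file headers, the columns are those that Cuffdiff writes. Tools listed in the submitters' processing notes, without roles, are Cuffdiff 2.2.1, STAR 2.4.2a, Trimmomatic, Picard 1.119 and bcl2fastq 2.17.1.14, with the build GRCm38 (mm10). Annotation, strand setting and the treatment of multi-mapping reads were not given in the sources used here. All 6 columns were used, matched to samples by genotype word and number. The smallest steps of the deposited FPKM put 1 fragment at between 0.0707 and 0.0758 FPKM for a transcript of 1 kb. These steps include the authors' scaling, so the depth itself is unknown.

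The test was limma 3.58.1 (R 4.3.3), with its prior variance following the mean level, applied to log2(FPKM + 1) of genes averaging 0.5 FPKM or more, at a Benjamini-Hochberg adjusted p of 0.05. This scale understates the change of low genes, and linear folds are ratios of group means. Transcript lengths and positions came from GENCODE M21. The members and lists were chosen with earlier results of these data known. Named were members past the threshold, the members of each role with an unadjusted p under 0.05 and its 2 most abundant, and the deleted genes; other members were named after their values were seen, to account for all 44. In the other lists the 2 smallest unadjusted p-values were named where under 0.05. Rheb and Prkab1, the 2 lower genes under 0.05 there, were named after their values were seen. Alternatives were a pseudocount of 0.1, no filter, a filter of 2 FPKM, quantile normalization, library weights, the replicate number as a block, each library left out, and, added after the values were seen, removal of the trend on length and GC content.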

Additional observations from a re-analysis of the deposited data

How the results depend on the processing

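No autophagy gene passed the threshold under a pseudocount of 0.1, no filter, a filter of 2 FPKM, quantile normalization or the length and GC correction. With library weights 3 passed, Map1lc3a (log2 fold change -0.82), Atg101 (-0.64) and Wipi1 (0.67), and 14 had an unadjusted limma p under 0.05, beside 26.4% of all tested genes. Leaving out 1 library gave between 0 and 1 past the threshold. By an unadjusted limma p under 0.05 it gave 5 without double knockout replicate 2, the fewest, beside 9.06% of all tested genes. The most were 11 without control replicate 1, beside 14.9%. That share was lowest without control replicate 2 (8.87%, 7 members) and highest without control replicate 3 (23.0%, 10 members). The median log2 fold change was between -0.20 and -0.10 with 1 library left out, -0.087 under quantile normalization and -0.071 with library weights. Over all tested genes, 37 passed in the fit reported, 2 with no filter, 563 with library weights, and between 2 and 242 with 1 library left out. Those calls came to 5, 2 and 242 without control replicates 1, 2 and 3, and to 5, 4 and 6 without double knockout replicates 1, 2 and 3. Of 234 values of the named members under the alternatives, 230 kept their side of the threshold. No member was past it in the fit reported, so keeping it meant staying uncalled. The log2 fold change moved by over 1.5 times or changed sign in 0 of 44 members with no filter. It did so in 21 with library weights, 20 with the length and GC correction and 26 without control replicate 3. The replicate number as a block left 0 autophagy genes past the threshold, 50 genes in all, and 11 members with an unadjusted p under 0.05 (16.3% of all tested genes). Deviations of equally numbered libraries correlated at 0.22, -0.08 and 0.30. With 3 libraries a group, these values cannot decide whether the numbers pair the samples. Genes near 0.5 FPKM rest on few fragments, but the lowest member averaged 3.04 FPKM.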
